A study of Saccharomyces cerevisiae with 6 samples.

Results

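The comparison described here is that of the haploid budding yeast strain YJR13, which lacks MYO1, with the wild type strain YJR12. It rests on 3 of the 6 two-channel arrays of the series, those whose labels name these strains as replicates 1 to 3. The other 3 arrays compared YJR6, another myo1Δ strain, with its parent MGD353-46D. They are used here to show where YJR13 differs, and they share the estimate of the spread behind each SE and p-value. YJR6 and MGD353-46D are both MATα with mutations in trp1, ura3, leu2 and his3, are ADE+ ARG cyhR and differ in myo1Δ::HIS5+, and YJR6 was grown in histidine dropout medium. YJR13 is MATa trp1 ura3 leu2-3 his3Δ1 and carries myo1Δ::HIS5+, and YJR12 is MATα trp1 ura3 leu2-3 his3Δ1 and MYO1 wild type. Both are ADE+ and cyhR, that is, resistant to cycloheximide, with ARG given as ARG+ for YJR12 and as ARG for YJR13. Both are haploid segregants of a cross of YJR6, which is MATα, with the laboratory strain BY4741, which is MATa and carries met15Δ0 besides his3, leu2 and ura3 mutations. The 2 strains on each array therefore differ in mating type and may differ at any other locus that segregated in the cross, so that the deletion cannot be told apart from those loci. Cells were grown overnight at 26°C in complete synthetic medium or in histidine dropout medium. The text of the study points to dropout medium for the mutants and complete medium for the wild types, although the labels state it for YJR6 alone, so that the medium cannot be told apart from the deletion either. Each strain is 1 haploid line, and RNA was taken from 3 biological replicate cultures per strain.

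MYO1 encodes the heavy chain of the yeast type II myosin. At the end of mitosis this motor assembles with actin into a contractile ring at the bud neck, and the ring closes while chitin synthase II lays down the primary septum between mother and daughter. Cells without the ring divide late and abnormally and build a thickened septum whose chitin comes from another chitin synthase. Damage to the cell wall is sensed at the plasma membrane and signaled through Rho1p, protein kinase C and the MAP kinase Slt2p, which acts on the transcription factor Rlm1p. A broader program, the environmental stress response, raises genes for chaperones, trehalose and glycogen metabolism and oxidative defense and lowers ribosomal genes under many kinds of stress and at slow growth.

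Each array held 10263 spots of 6256 genes and 544 control spots, and a log2 ratio is given throughout as YJR13 over YJR12 unless YJR6 is named. On arrays 1 and 3 the dye of YJR13 was Cy5, and on array 2 it was Cy3. Levels within a channel are given as the mean of a spot over its local background (times background), before normalization. They are not comparable between genes, and between arrays they are not normalized. The median gene was 1.64, 1.85 and 1.76 times background in the YJR13 channels of arrays 1 to 3 and 1.35, 1.45 and 1.23 times in the YJR12 channels, where the 95th percentile of negative control spots lay between 1.02 and 1.12 times. Across genes, arrays 1 and 2 correlated at r = 0.77, while array 3 correlated with array 1 at 0.437 and with array 2 at 0.464. Array 3 thus stands apart, and the values below are given by array and the medians of the lists described most fully are also given without it. The labels do not give the slide, which was inferred from the scan names in the headers. By these names arrays 1 and 2 share a slide, and array 3 shares its slide with array 4 of the YJR6 pair. Genes with near-identical copies, among them the ASP3 genes, HTA1 and HTA2, the mating type cassettes, HXT6 and HXT7 and many ribosomal protein pairs, may share RNA on their probes.

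The labels were first checked against the deleted gene and the mating type genes. MYO1 (YHR023W, chromosome VIII, 1 spot) gave log2 ratios of -2.11, -1.45 and -1.69 on arrays 1, 2 and 3, with a mean of -1.75 (SE 0.38, n = 3 arrays, adjusted p = 0.0727 from limma). It was lower on 3 of 3 arrays, at 1.02, 1.12 and 1.03 times background in YJR13, against 1.72, 1.61 and 1.5 times in YJR12. The difference misses the adjusted p of 0.05, and since the YJR13 channels lie at background the size of the ratio moves with how background is corrected. No source used here gives the place of the probe relative to the deleted part.

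Mating type in yeast is set by the MAT locus, and a cells and α cells each express a small set of genes of their own, above all for the pheromone they make and the receptor for the partner's pheromone. Most genes of a cells were higher in YJR13. STE2, the receptor for α-factor, was 2.15, 2.58 and 2.86 times background in YJR13 and 1.08, 1.03 and 1.09 times in YJR12, which is a rise of 1.59 in log2 ratio (SE 0.23, 3 arrays, adjusted p = 0.0434 from limma). STE6, the exporter of a-factor, stood at 2.68, 3.25 and 3.78 times background in YJR13, against 1.17, 1.21 and 1.22 times in YJR12, and rose by 1.49 (SE 0.18, adjusted p = 0.0383). The strains did not overlap at either gene, and YJR12 was near background on every array. MFA1 and MFA2, which encode a-factor, were higher on 3 of 3 arrays at mean log2 ratios of 1.24 (adjusted p = 0.0519) and 0.73 (adjusted p = 0.0578) without passing the test. Of the 7 a-specific genes measured 2 rose, 0 fell and 5 were higher on all 3 arrays. The exceptions were ASG7 (0.41, 0.80 and -0.24) and AGA2 (-0.01, 0.39 and 0.14).

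The 4 measured genes of α cells were lower in YJR13 on every array. STE3, the receptor for a-factor, was 1.09, 1.12 and 1.06 times background in YJR13 and 4.13, 3.28 and 1.76 times in YJR12, and fell by 3.11 (SE 0.46, adjusted p = 0.0434 from limma). MF(ALPHA)1, the main gene for α-factor, gave log2 ratios of -4.43, -4.47 and -2.52 (mean -3.81, SE 0.65, adjusted p = 0.0553), and SAG1, the α-agglutinin, -3.04, -3.11 and -1.95 (mean -2.70, SE 0.68, adjusted p = 0.0952). In YJR12 the STE3, MF(ALPHA)1 and SAG1 spots were all dimmest on array 3. Of the 4 α-specific genes 1 fell, and all 4 were lower on 3 of 3 arrays, with a median log2 ratio of -2.90 (-3.29 without array 3). HMRA1, the silent a1 cassette whose probe would also read a1 RNA of an expressed MATa locus, was above background in all 3 YJR13 channels (1.57, 2.26 and 2.38 times) and in no YJR12 channel. Its log2 ratios of 0.73, 2.11 and 0.99 averaged 1.28 (adjusted p = 0.0689), and with YJR12 not above background the size of the ratio is uncertain. The MAT labels and the marker genes thus point the same way on all 3 arrays. The calls of STE2, STE6 and STE3 were lost when any one of arrays 1 to 3 was left out (adjusted p of 0.0672 to 0.257), with the same sign each time.

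**Figure D1:**
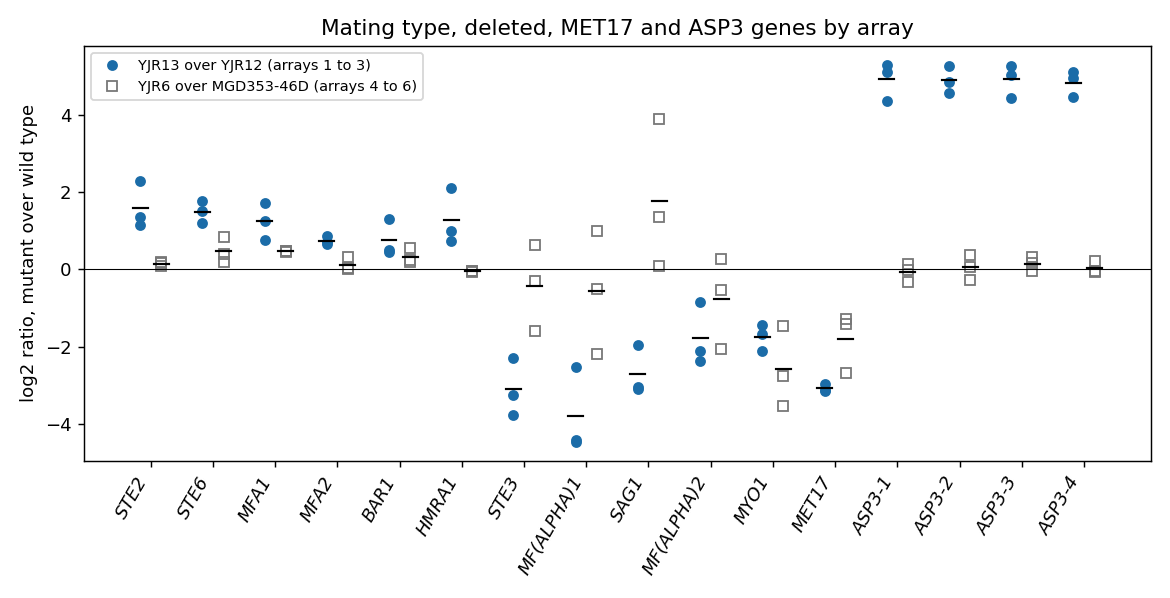
Log2 ratio of mutant over wild type on each array for a-specific genes (STE2 to BAR1), HMRA1, α-specific genes (STE3 to MF(ALPHA)2), MYO1, MET17 and the ASP3 genes. Filled circles are YJR13 over YJR12 (arrays 1 to 3), open squares are YJR6 over MGD353-46D (arrays 4 to 6) and bars are means. The ASP3 genes lie between 4.36 and 5.29 in the YJR13 pair and from -0.33 to 0.37 in the other pair.

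Pheromone response genes, which both haploid types use, had a median near 0. Of 30 haploid and pheromone response genes 0 rose and 1 fell, 3 were higher and 9 lower on all 3 arrays, and the median was -0.14 (-0.19 without array 3). The shares on all 3 arrays were 10% higher and 30% lower, compared with 25% and 23.6% of all genes. The gene that fell was GIC2, an effector of Cdc42p in bud polarity (-1.41, SE 0.20, adjusted p = 0.0434 from limma). FUS1, a cell fusion protein induced by pheromone, gave -1.0, -1.36 and -0.49 (mean -0.95, adjusted p = 0.0653), and FAR1, which arrests the cycle in G1, gave -1.35, -1.98 and -0.52 (mean -1.29, adjusted p = 0.081). HO, the mating type switching endonuclease, had log2 ratios of -2.10, -2.19 and -2.06 (mean -2.11, SE 0.35, adjusted p = 0.0536), at 1.27, 1.23 and 1.23 times background in YJR13 and 2.40, 2.26 and 1.79 times in YJR12. HO was named after its values were seen.

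Across all genes tested, 36 rose in YJR13 (0.576% of 6255) and 42 fell (0.671%) at an adjusted p of 0.05, from limma with a coefficient for each strain pair fitted over all 6 arrays. The 36 rose by 0.99 to 4.92 on the log2 scale (median 2.09), and the log2 ratios of the 42 lay between -3.11 and -0.81 (median -1.47). At the unadjusted p of 0.01 that the methods give, 264 genes were higher (4.22%) and 302 lower (4.83%), and at an adjusted p of 0.01 the count was 6, namely ASP3-1 to ASP3-4, HOR7 and DAK1. Of the 6222 genes with a value on all 3 arrays, 25% were higher on all of them and 23.6% lower. These shares of all genes, for calls and for 1 sign on all 3 arrays, are the background to the counts given for each gene list. Leaving out 1 array changed the count of called genes, which was 5 when array 1 was dropped, 4 when array 2 was and 5 when array 3 was. The 4 ASP3 genes were called in all 3 of these fits and HOR7 without array 3 alone, while the other 73 lost their call in each (adjusted p of 0.0529 to 0.268). All 78 kept their sign in each. Arrays 4 to 6 share the estimate of the spread, and dropping array 4, 5 or 6 gave 45, 188 and 7 calls. The balance of higher and lower calls depended on the normalization, with 379 higher and 114 lower calls after median normalization. P-values measure the spread between these arrays, and the number of arrays limits their precision. An exact sign-flip test over 3 arrays cannot go below 0.25.

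**Figure D2:**
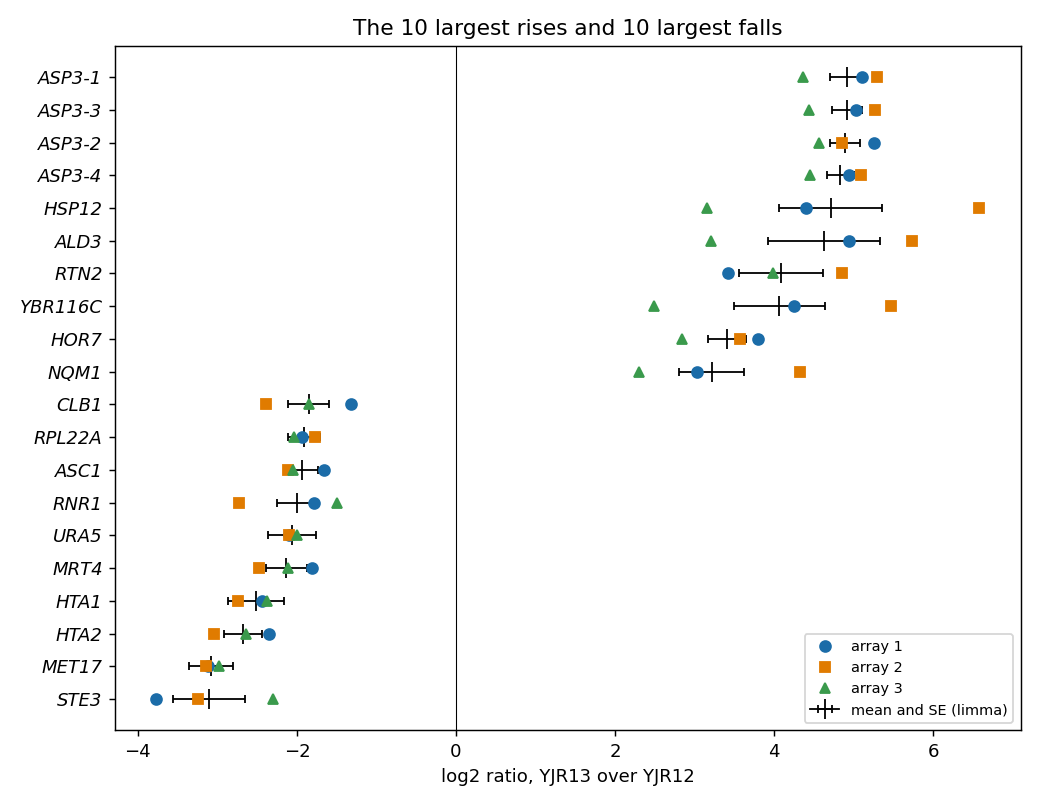
The 10 largest rises and the 10 largest falls among genes past an adjusted p of 0.05 with 1 sign on all 3 arrays, as log2 ratio of YJR13 over YJR12 (horizontal axis). Colored symbols are arrays 1 to 3, and the vertical bar with whiskers is the mean with the limma SE. HSP12 spans 3.15 to 6.58, while MET17 spans only -3.14 to -2.97.

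The largest rises were those of ASP3-1, ASP3-2, ASP3-3 and ASP3-4 (YLR155C, YLR157C, YLR158C and YLR160C), tandem copies, all on chromosome XII, of a gene for the secreted asparaginase that yeast uses to take nitrogen from external asparagine. ASP3-1 was 16.8, 20.3 and 23.2 times background in YJR13 on arrays 1 to 3, against 1.12, 1.14 and 1.10 times in YJR12, with log2 ratios of 5.10, 5.29 and 4.36. ASP3-4 gave log2 ratios of 4.95, 5.09 and 4.45. Over the 4 copies the YJR13 channels lay between 14.9 and 25.9 times background and the YJR12 channels between 1.09 and 1.2 times, so that the strains were far apart on every array. The mean log2 ratios were 4.92 (SE 0.21, adjusted p = 0.000495 from limma), 4.89, 4.91 and 4.83 (SE 0.17, adjusted p = 0.000381) for ASP3-1 to ASP3-4, and the 4 were called in 18 of 18 alternative settings. Their log2 ratios ran between 3.24 and 7.02 over the settings, since YJR12 is near background.

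Neither YJR6 (1.07 to 1.28 times background) nor MGD353-46D (1.09 to 1.25 times) showed the ASP3 signal, and the 4 ASP3 genes were the 4 genes whose log2 ratio differed between pairs in limma (adjusted p of 0.0037 or less, 0.0639% of 6255 genes). At an unadjusted p of 0.05 the number was 473. The call of a difference was lost with the slide as a fixed block and after scaling between arrays. With the slide as a fixed block, only arrays 3 and 4, which share a slide by the scan names, compare the pairs. Between these arrays ASP3-1 differed by 4.39 in log2 ratio. The repeat also holds short open reading frames, which were looked at after the ASP3 values were seen. YLR156W, YLR159W and YLR161W had mean log2 ratios of 1.16, 1.25 and 1.2 (adjusted p of 0.0624 to 0.0689) and were higher on 3 of 3 arrays. YLR161W was 1.49, 2.22 and 4.12 times background in YJR13 and 1.11, 1.15 and 1.10 times in YJR12. In the YJR6 pair these 3 genes averaged -0.10 to -0.03. Outside the repeat, RNH203 (YLR154C) averaged -0.10 and ACS2 (YLR153C) -0.51, and neither passed the test. Of the 42 measured genes under nitrogen catabolite repression, which are turned down when a good nitrogen source is present, the 4 ASP3 genes rose, 0 fell and the median was -0.11. ASP1, the intracellular asparaginase, gave -0.72, -1.26 and -0.75 (mean -0.91, SE 0.16, adjusted p = 0.056). The copy number of the repeat varies among yeast strains, and gene copies and RNA per copy cannot be told apart on these arrays.

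Of the genes named in the strains' genotypes, MET17 changed. MET17 (YLR303W, chromosome XII), also called MET15, encodes the sulfhydrylase that makes homocysteine, and it is the gene that is deleted in BY4741. It was 1.09, 1.18 and 1.15 times background in YJR13 and 3.54, 3.41 and 2.24 times in YJR12, and its log2 ratios of -3.12, -3.14 and -2.97 were among the closest of the called genes. It fell by 3.08 (SE 0.28, n = 3 arrays, adjusted p = 0.0211 from limma). In the YJR6 pair, whose strains do not descend from BY4741, it was also lower, at -2.67, -1.41 and -1.29 (mean -1.79), and the difference between pairs of -1.29 did not pass the test (adjusted p = 0.554). The neighbor ACO1 averaged 0.18, and of 34 methionine and sulfate genes MET17 alone changed, with a median of 0.17 over the list. The call of MET17 ended when array 1, 2 or 3 was left out (adjusted p of 0.0672 to 0.193, log2 ratios of -3.13 to -3.05), without background correction (-1.53, adjusted p = 0.0627) and with a term for the dye (-3.04, adjusted p = 0.0558).

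The other genotype genes did not pass the test. HIS3 was near background in both strains, at 1.01, 1.10 and 1.04 times in YJR13 and 1.08, 1.02 and 1.07 times in YJR12, as was LEU2 at 1.02, 1.13 and 1.17 times in YJR13 and 1.09, 1.04 and 1.10 times in YJR12. URA3 was 1.26, 1.33 and 1.53 times background in YJR13 against 1.09, 1.05 and 1.08 times in YJR12, a mean log2 ratio of 0.43 (SE 0.14, adjusted p = 0.163). HIS5, the yeast gene for histidinol phosphate aminotransferase, averaged 0.37 (adjusted p = 0.347), and whether its probe reads the HIS5+ marker was not tested. TRP1 averaged 0.17 and ARG4 -0.26. RPL28, in which mutations give resistance to cycloheximide, had log2 ratios of -0.71, -1.50 and -2.75 (mean -1.65, adjusted p = 0.0852). Of 10 histidine biosynthesis genes 0 changed, 1 was higher and 3 were lower on all 3 arrays, and the median was 0.03. The 3 were 30% of the list, near the 23.6% of all genes.

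After the ASP3 genes, the largest rises were of stress-induced genes. A list of 30 heat shock, hydrophilin and other stress-induced genes held 5 that rose (HSP12, HOR7, RTN2, GRE1 and GRE3), 0 that fell and 23 that were higher on all 3 arrays. Heat shock proteins and hydrophilins protect other proteins and membranes against heat and drying, while RTN2 and GRE3 have other roles. Their median log2 ratio was 2.76, at 2.94, 3.39 and 1.36 on arrays 1 to 3 (3.25 without array 3), beside a median of 0.01 over all genes. HSP12, a small membrane-associated heat shock protein, was 10.9, 43.0 and 16.7 times background in YJR13 and 1.12, 1.14 and 1.40 times in YJR12, and rose by 4.71 (SE 0.65, n = 3 arrays, adjusted p = 0.0434 from limma). HOR7, a small protein induced by high osmolarity, had log2 ratios of 3.79, 3.58 and 2.85 and rose by 3.41 (SE 0.24, adjusted p = 0.00838). RTN2, a reticulon of the endoplasmic reticulum, rose by 4.08 (SE 0.53, adjusted p = 0.0425), and the hydrophilin gene GRE1 by 2.79 (SE 0.26, adjusted p = 0.024). HSP26, the main cytosolic small heat shock protein, stood at 3.96, 4.74 and 3.69, but its mean of 4.13 carried an SE of 0.99 (adjusted p = 0.0872). The SE is shared with the YJR6 pair, in which HSP26 ranged from 1.57 to 6.80 over the arrays.

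Storage carbohydrates and the metabolism of aldehydes and small polyols made up a second group. Trehalose is a reserve and a protectant of the stressed cell, and of 7 trehalose genes 1 rose and 6 were higher on all 3 arrays (median 2.38, or 2.74 without array 3). NTH1, the neutral trehalase, was the one that rose, by 2.38 (SE 0.36, adjusted p = 0.045 from limma), while TPS1, the synthase, gave 2.20, 3.49 and 1.59 (mean 2.42, adjusted p = 0.0661). Of 16 glycogen genes 0 rose, 13 were higher on all 3 arrays and 7 were higher at an unadjusted p of 0.01, with a median of 2.00 (2.21 without array 3). GPH1, glycogen phosphorylase, was close on the 3 arrays at 4.71, 4.27 and 4.96, yet had an SE of 1.11 (adjusted p = 0.0872), as its log2 ratio in the YJR6 pair ran from -0.05 to 5.94. Of 14 glycerol genes 1 rose and 6 were higher on all 3 arrays (median 1.06, or 1.44 without array 3). It was DAK1, a dihydroxyacetone kinase, which had log2 ratios of 2.01, 2.69 and 2.18 and which rose by 2.29 (SE 0.17, adjusted p = 0.00943). GRE3, an aldose reductase of the stress list, rose by 1.95 (SE 0.27, adjusted p = 0.0434).

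ALD3, a cytosolic aldehyde dehydrogenase, had log2 ratios of 4.93, 5.73 and 3.20 and rose by 4.62 (SE 0.71, adjusted p = 0.0455 from limma), and its neighbor and close relative ALD2 averaged 0.75 (adjusted p = 0.281). The pentose phosphate pathway, which makes NADPH and ribose, was divided between its isozymes. The minor isozymes NQM1 (a transaldolase, 3.21, SE 0.41) and GND2 (a 6-phosphogluconate dehydrogenase, 2.89, SE 0.42) rose, and the minor transketolase TKL2 had a log2 ratio of 2.70 (adjusted p = 0.0578) and the lactonase SOL4 one of 4.01 (adjusted p = 0.0654). The main lactonase SOL3 fell (-0.81, SE 0.12), and the major isozymes GND1, TAL1 and TKL1 averaged -0.17, -0.45 and -1.03 without passing the test. YBR116C, which lies beside TKL2, rose by 4.07 (SE 0.57, adjusted p = 0.0434), and overlap in the RNA read by both probes was not tested. Of the 30 oxidative stress genes 0 rose and 15 were higher on all 3 arrays (median 0.57). CTT1, the cytosolic catalase, stood at 4.04, 5.97 and 2.02 (mean 4.01, adjusted p = 0.0598).

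Genes of the citric acid cycle and the respiratory chain were higher by a smaller amount. Of 49 genes 3 rose, 0 fell and 30 were higher on all 3 arrays, and the median was 0.71, with 0.47, 1.09 and 0.55 on arrays 1 to 3 (0.61 without array 3). ATP2, the beta subunit of the mitochondrial ATP synthase, was 7.70, 11.3 and 27.5 times background in YJR13 and 3.45, 2.93 and 2.56 times in YJR12, and rose by 2.04 (SE 0.21, adjusted p = 0.0256 from limma). CIT1, the mitochondrial citrate synthase, had log2 ratios of 1.95, 3.13 and 1.45 and rose by 2.18 (SE 0.34, adjusted p = 0.0496). QCR2, a core subunit of the cytochrome bc1 complex, had 1.77, 1.68 and 2.11 and rose by 1.85 (SE 0.19, adjusted p = 0.0367). QCR2 had no value on array 5, so its fit used 5 arrays. Mitochondrial ribosomal proteins did not share the shift, as 0 of 56 rose, 7 were higher and 16 lower on all 3 arrays and the median was -0.05.

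**Figure D3:**
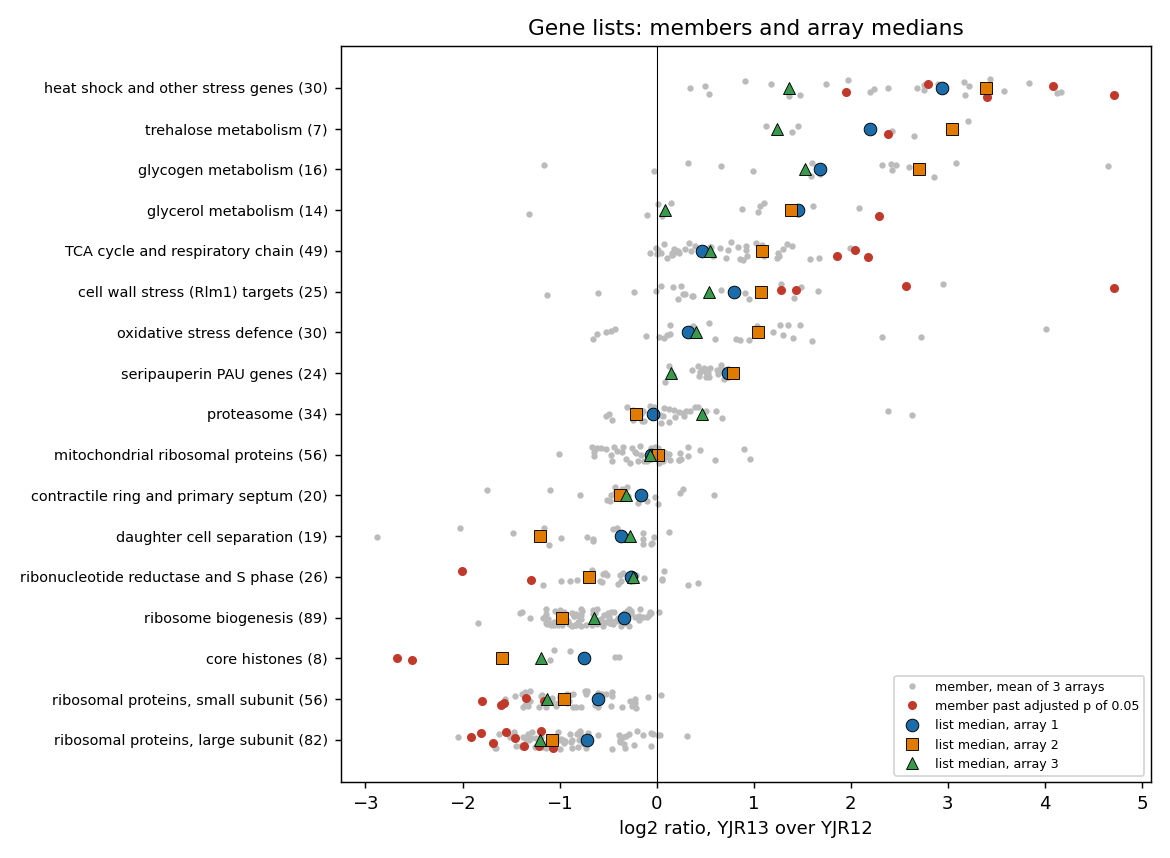
Log2 ratio of YJR13 over YJR12 for the members of 17 gene lists, with the number of members tested in parentheses. Gray points are means over the 3 arrays, red points are members past an adjusted p of 0.05, and large symbols are list medians on arrays 1, 2 and 3. Heat shock and other stress genes have medians of 2.94, 3.39 and 1.36, and large subunit ribosomal proteins -0.72, -1.07 and -1.20.

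Cell wall genes were examined because a strain without the contractile ring builds an abnormal septum. Of 25 targets of the Slt2p and Rlm1p cell wall stress response 4 rose, 0 fell, and 14 were higher and 2 lower on all 3 arrays, with a median of 0.66 (0.85 without array 3). The share that rose was 16%, compared with 0.576% of all genes. The shares higher and lower on all 3 arrays were 56% and 8%, compared with 25% and 23.6% of all genes. The 4 were SED1, BGL2, SRL3 and HSP12, of which HSP12 is also a general stress gene. SED1, an abundant wall protein of stationary cells, was 12.5, 42.8 and 21.9 times background in YJR13 and 4.51, 7.33 and 1.99 times in YJR12, and rose by 2.56 (SE 0.27, n = 3 arrays, adjusted p = 0.0256 from limma). BGL2, an endo-beta-glucanase of the wall, rose by 1.44 (SE 0.22, adjusted p = 0.0434). SRL3, found in yeast as a suppressor of checkpoint lethality, was unusually even, with log2 ratios of 1.15, 1.30 and 1.40, and rose by 1.28 (SE 0.14, adjusted p = 0.0288). PIR3, a wall protein linked to glucan, gave 1.61, 3.10 and 4.12 (mean 2.95, adjusted p = 0.125), and SLT2 itself 0.95, 1.60 and 0.73 (mean 1.09, adjusted p = 0.0598).

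The rest of the wall lists held few calls in either direction. Of 24 genes of glucan synthesis and assembly BGL2 rose and GAS3, a relative of the glucan remodeling enzyme Gas1p, fell (-1.24, SE 0.19, adjusted p = 0.0443 from limma). GAS1 gave -0.62, -1.86 and -1.89 (mean -1.46, adjusted p = 0.0737), and FKS1, a catalytic subunit of glucan synthase, averaged 0.29 (adjusted p = 0.80). Of 18 genes for chitin synthesis and transport 0 changed, 1 was higher and 6 lower on all 3 arrays, and the median was -0.07. The 6 were 33.3% of the list, not far from the 23.6% of all genes. CHS3, the catalytic subunit of chitin synthase III, averaged -0.24 (SE 0.26), CHS2 -0.36 (SE 0.23), and CHS1 1.96, 0.96 and -0.88 on the 3 arrays. Of the 27 members of the cell integrity pathway measured 0 changed (median 0.21). The sensor WSC2 was lower on 3 of 3 arrays (mean -1.06, adjusted p = 0.0587).

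Genes of the ring and of daughter separation were mostly at or below their YJR12 level. Of the 20 contractile ring and primary septum genes 0 passed the test, 2 were higher and 9 lower on all 3 arrays, and the median was -0.37 (-0.24 without array 3). CDC12, a septin, gave -0.70, -1.60 and -1.01 (mean -1.10, adjusted p = 0.081), the essential light chain MLC1 0.09, -1.38 and 0.36, and IQG1, the ring scaffold, averaged -0.02. Of the 19 genes of daughter cell separation, many of them expressed in daughters under the transcription factor Ace2p, 0 changed and 11 were lower on all 3 arrays (median -0.45). SUN4, a glucanase-like wall protein, was 2.03, 1.79 and 2.88 times background in YJR13 against 11.6, 12.2 and 4.10 times in YJR12, a mean log2 ratio of -2.88 (SE 0.50, adjusted p = 0.056). CTS1, the chitinase that frees the daughter, had 0.30, -1.20 and 0.47 and so no common sign.

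Among the genes that fell, those for ribosomal proteins were the most numerous. Of 82 genes for proteins of the large subunit 0 rose, 9 fell and 69 were lower on all 3 arrays, with a median of -1.01 (-0.87 without array 3), and of 56 for the small subunit 0 rose, 5 fell and 46 were lower on all 3 arrays, with a median of -0.92 (-0.76 without array 3). RPL22A, of the large subunit, was 2.72, 3.56 and 2.46 times background in YJR13 and 9.0, 9.43 and 3.73 times in YJR12, and fell by 1.91 (SE 0.20, n = 3 arrays, adjusted p = 0.0256 from limma). RPL9A had nearly the same log2 ratio on each array, at -1.36, -1.35 and -1.39 (SE 0.13, adjusted p = 0.0256). The called members lay between -1.91 and -1.07 in the large subunit and between -1.80 and -1.16 in the small one. At an unadjusted p of 0.01, 41 large and 26 small subunit genes were lower.

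Of 89 ribosome biogenesis genes 0 passed the test in either direction, but 66 were lower and 0 higher on all 3 arrays, with a median of -0.66, at -0.33, -0.97 and -0.65 on arrays 1 to 3. Of 34 translation factors 0 changed and 18 were lower on all 3 arrays (median -0.41). Among the called genes outside these lists, ASC1, a protein bound to the head of the small subunit, had log2 ratios of -1.66, -2.11 and -2.05 and fell by 1.94 (SE 0.21, adjusted p = 0.0288 from limma). MRT4, an assembly factor of the large subunit stalk, fell by 2.13 (SE 0.26, adjusted p = 0.0367). The tRNA synthetase genes KRS1 and MES1 fell by 1.16 and 0.91, RPO26, a subunit shared by the nuclear RNA polymerases, by 1.40, and IMD1, a gene of the GTP synthesis family, by 1.49. YLL044W and YGL102C also fell (-1.68 and -1.67), and by systematic name they lie beside or over RPL8B (-1.22, adjusted p = 0.0878) and RPL28. Overlap in the RNA read by these probes was not tested, so they may not be separate from those genes. URA5, an orotate phosphoribosyltransferase of pyrimidine synthesis, was 4.31, 5.21 and 4.77 times background in YJR13 and 22.2, 21.7 and 6.74 times in YJR12, and fell by 2.06 (SE 0.30, adjusted p = 0.0434).

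Some histone and S phase genes fell as well. HTA2 and HTA1 encode histone H2A, which is made in S phase. HTA2 was 2.68, 2.34 and 3.13 times background in YJR13 and 12.6, 11.3 and 6.73 times in YJR12, and fell by 2.68 (SE 0.24, n = 3 arrays, adjusted p = 0.0211 from limma). HTA1 had log2 ratios of -2.44, -2.74 and -2.37 and fell by 2.52 (SE 0.35, adjusted p = 0.0434). The other 6 core histone genes did not pass the test, and their means ran from -1.56 at HTB2 to -0.39 at HHT1. Of 26 ribonucleotide reductase and S phase genes 2 fell and 17 were lower on all 3 arrays (median -0.39). RNR1, the large subunit of ribonucleotide reductase, had -1.79, -2.73 and -1.5 and fell by 2.0 (SE 0.24, adjusted p = 0.0367), and RFA2, of the single-strand binding complex RPA, fell by 1.30 (SE 0.18). RNR2, RNR3 and RNR4 averaged 0.43, 0.05 and -0.22 and did not pass. CLB1, a mitotic cyclin, fell by 1.85 (SE 0.25, adjusted p = 0.0434), and of 16 cyclins and cell cycle regulators it was the one called, with 8 lower on all 3 arrays. Without array 1, 2 or 3 the calls of HTA1, HTA2 and RNR1 were lost, at adjusted p of 0.0672 to 0.257, with log2 ratios between -2.84 and -1.64.

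The remaining called genes had scattered roles. Among the rises were IRA2, which restrains Ras, and BCY1, which restrains protein kinase A (1.68, SE 0.22, and 1.16, SE 0.13), the vacuolar protease gene PEP4 (1.58, SE 0.23), the cyclophilin gene CPR1 (0.99, SE 0.15) and RSF2, a transcription factor of respiratory growth on glycerol (1.38, SE 0.20). HBT1, DCS1, FMP46, GGA1, FUN19, COS1, YGR201C and YMR315W also rose, by 1.26 to 2.64. Among the falls were GGC1, the mitochondrial carrier of guanine nucleotides (-1.62, SE 0.18), ELO2 and LAC1, of very long chain fatty acid and ceramide synthesis (-1.26 and -1.07), ERG13, of ergosterol synthesis (-1.19), ARO10, of amino acid breakdown (-1.49), and PMI40, which makes mannose phosphate for glycans (-1.02). TIM8, RIM1 and YDR514C fell by 1.24, 0.96 and 1.13.

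Some lists held no call. Of the 22 hexose transporter genes 0 passed the test, and the median was 0.38 for YJR13 beside 1.87 for YJR6. On all 3 arrays 4 were higher (18.2%) and 3 lower (13.6%), compared with 25% and 23.6% of all genes. Of the 24 PAU genes, a family of small wall mannoproteins whose members are alike, 17 were higher and 0 lower on all 3 arrays (median 0.52, or 0.73 without array 3). Iron uptake and zinc response genes were lower on all 3 arrays in 11 of 26 and 10 of 15 cases, with medians of -0.44 and -0.33. FIT1, a wall mannoprotein that retains iron siderophores, gave -2.0, -2.81 and -3.25 (mean -2.69, SE 0.48, adjusted p = 0.0578 from limma), and ZPS1, a protein induced at low zinc, gave -1.05, -4.08 and -3.34 (mean -2.82, adjusted p = 0.0598). Proteasome genes had medians of -0.03, -0.21 and 0.46 on the 3 arrays. Gluconeogenesis genes had medians of 0.85, 1.84 and -0.11, so that array 3 was set apart in both lists, upward in the first and downward in the second.

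Array 3 was set beside arrays 1 and 2 for genes far from 0 on both of those arrays. Genes picked in this way tend to be less extreme on any other array. Genes extreme on array 3 alone were not counted, so the counts do not show where array 3 differs most. Of 107 genes above a log2 ratio of 2 on both arrays 1 and 2, 35 were above 2 on array 3 as well, 43 were below 0.5 and 30 of these below 0, with a median of 1.12. Of 13 genes below -2 on arrays 1 and 2, 6 were as far below on array 3 and 0 were above -0.5. The genes named next were chosen after these values were seen. They were grouped into a set in which the YJR12 channel was high on array 3 and a set in which the YJR13 channel was low, with exceptions given below.

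The first set held chaperones. HSP42, a small heat shock protein that collects misfolded proteins, had log2 ratios of 5.55, 5.17 and -1.21, with 84.2, 59.2 and 93.0 times background in YJR13 and 3.51, 2.71 and 47.3 times in YJR12. SSA4, the inducible Hsp70, had 5.67, 3.21 and -0.60, with 48.7, 16.4 and 45.0 times in YJR13 and 1.92, 2.31 and 21.8 times in YJR12. In both, YJR13 was bright on all 3 arrays and YJR12 on array 3 alone. BTN2, a sorting factor for misfolded proteins (5.65, 3.75 and -1.29), and HSP78, the mitochondrial disaggregase (4.36, 3.33 and -0.55), had the same form, with YJR12 at 21.9 and 11.6 times background on array 3 and at most 2.06 times on arrays 1 and 2.

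The second set held glucose-repressed genes and genes of fatty acid oxidation. HXT5, a hexose transporter of slow growth, had log2 ratios of 4.08, 5.39 and -0.53, with 9.80, 35.8 and 1.78 times background in YJR13 and 1.16, 1.37 and 1.41 times in YJR12. POT1, the peroxisomal thiolase, had 4.23, 4.42 and -1.18, with 9.98, 14.1 and 2.52 times in YJR13 and 1.12, 1.17 and 2.43 times in YJR12. SUC2, invertase, had 2.67, 3.89 and -0.13, with YJR13 at 5.53, 16.9 and 2.11 times. In HXT5 and SUC2 YJR12 stayed low on all 3 arrays and YJR13 was high on arrays 1 and 2 alone. In POT1 YJR13 was also lower on array 3, but YJR12 was higher there and nearly level with it. MTH1, drawn with this set, did not have this form. It stood at 4.57, 7.62 and 4.43 times in YJR13 and 1.18, 1.30 and 2.23 times in YJR12. None of these genes passed the test over the 3 arrays (adjusted p of 0.194 to 0.30 for HSP42, SSA4, BTN2, HSP78, HXT5, POT1 and SUC2), and the labels do not say in what the cultures of array 3 differed. Array 3 had the dye order of array 1 and, by the scan names, lay on another slide than arrays 1 and 2. The part of slide and culture in its values was not tested.

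**Figure D4:**
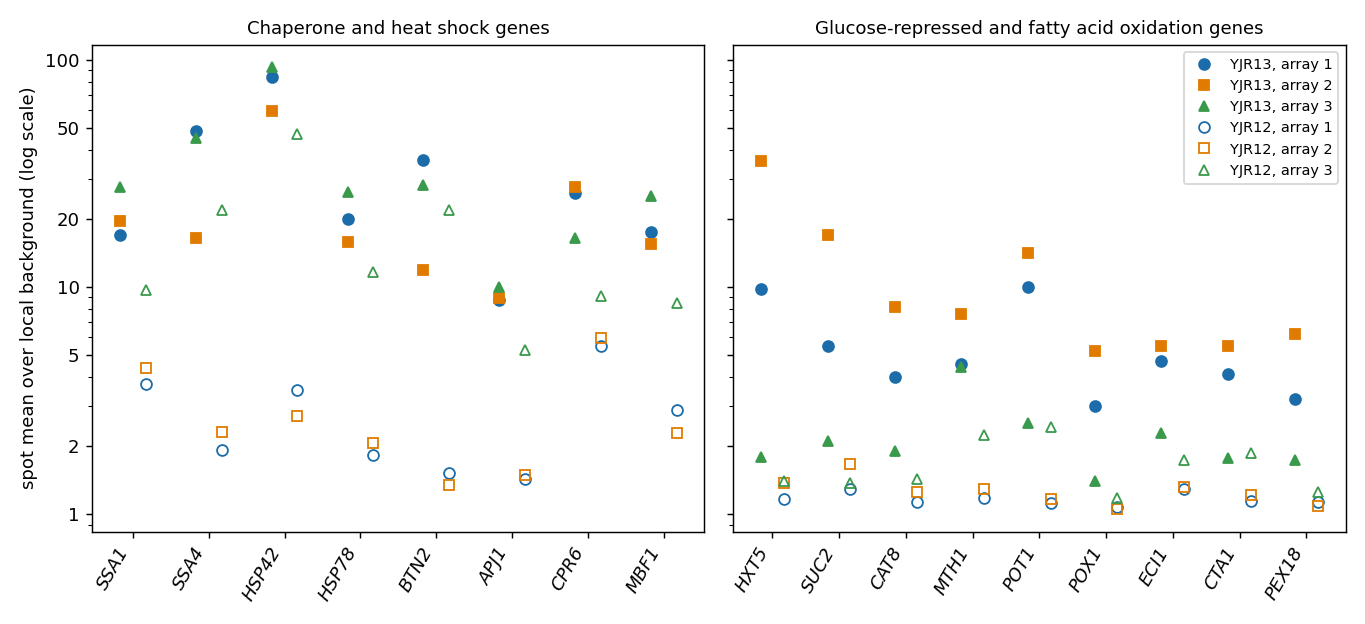
Level of chaperone and heat shock genes (left panel) and of glucose-repressed and fatty acid oxidation genes (right panel) in each channel, as spot mean over local background on a log axis. Filled symbols are YJR13 and open symbols YJR12, with the shape giving the array. On array 3 the YJR12 channel of HSP42 reaches 47.3 times background, and the YJR13 channel of HXT5 is at 1.78 times.

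The 78 called genes were then set beside the YJR6 pair, which has other cultures and other wild type RNA. Of the 36 that rose in YJR13, 30 (83.3%) were higher on all 3 arrays of the YJR6 pair, compared with 27% of all genes, and of the 42 that fell, 41 (97.6%) were lower on all 3, compared with 25.8% of all genes. Both pairs share the estimate of the spread that chose the 78 genes, so these shares have no test. For the rises the median log2 ratio was 2.09 with YJR13 and 1.65 with YJR6, and for the falls it was -1.47 with YJR13 and -1.55 with YJR6. HSP12 had a mean of 4.71 for YJR13 and of 5.68 for YJR6, and HTA2 one of -2.68 for YJR13 and of -2.74 for YJR6.

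Of the called genes that rose in YJR13, the ASP3 genes, STE2 and SRL3 had means between -0.19 and 0.15 in the YJR6 pair. SRL3 had log2 ratios of 1.15, 1.30 and 1.40 for YJR13, against 0.02, -0.41 and -0.16 for YJR6, without overlap between the pairs, and the difference of 1.47 did not pass the test (adjusted p = 0.316 in limma). Outside the called genes, the lysine genes LYS21 (0.40, 0.45 and 0.55 in the YJR13 pair, against -1.10, -0.84 and -1.47 in the YJR6 pair) and LYS9 (2.93, 0.73 and 1.56 against -0.90, -2.43 and -2.50) also did not overlap. Their differences were 1.60 (adjusted p = 0.316) and 3.68 (adjusted p = 0.554). In the other direction FUS1, PRM2 and SPP1 had differences of -1.60, -0.91 and -0.93 (adjusted p = 0.554 each). Apart from the ASP3 genes, no gene was shown to differ between pairs after adjustment, while 103 had an unadjusted p under 0.01.

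**Figure D5:**
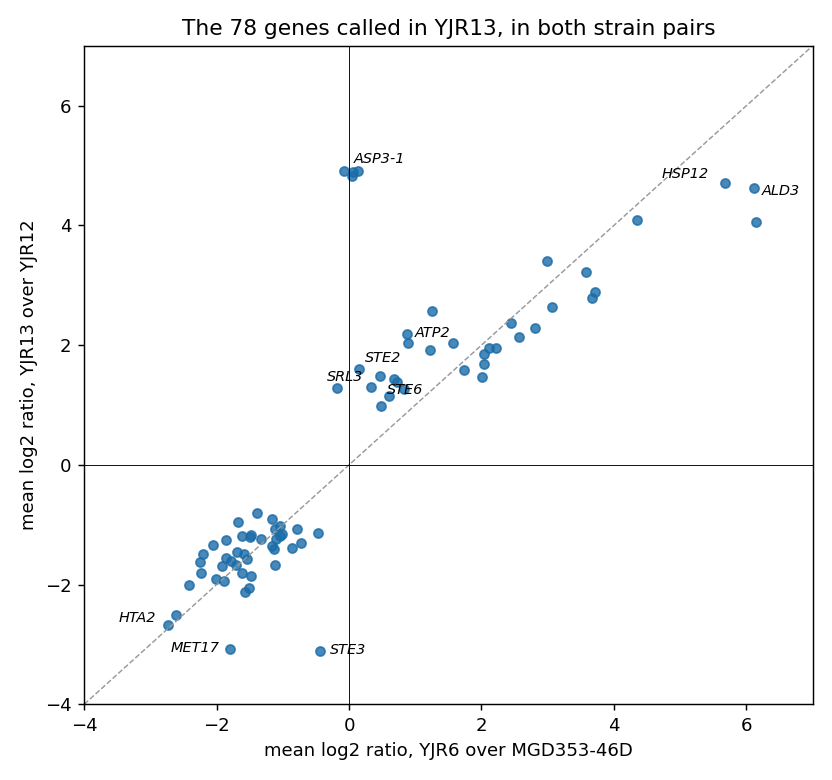
Mean log2 ratio of the 78 genes called in YJR13 over YJR12 (vertical axis) against their mean log2 ratio in YJR6 over MGD353-46D (horizontal axis), with the line of equal values dashed. The 4 ASP3 genes lie at 4.83 to 4.92 on the vertical axis and near 0 on the horizontal one, and STE3 lies at -3.11 and -0.43.

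Of the 6256 genes, 21 were above background in all 3 YJR13 channels and in no YJR12 channel, and 0 the other way round. Apart from HMRA1, the 21 genes lay near the limit of detection. That limit was 1.02, 1.12 and 1.03 times background for YJR13 on arrays 1 to 3 and 1.09, 1.03 and 1.10 times for YJR12. It was thus lower for YJR13 on arrays 1 and 3. YGR226C (-0.014) and YIM2 (-0.022) were among the 21 without a higher mean, so the count does not measure higher expression. HXT15, a hexose transporter, had log2 ratios of 0.27, 1.15 and -0.02 on arrays 1 to 3, and DIT2, an enzyme of the spore wall, 0.18, 1.06 and 0.02, so that array 2 was the high one for both. After median normalization their means lay below 0, at -0.03 for HXT15 and -0.08 for DIT2. The other 18 had mean log2 ratios between -0.02 and 0.26. None of the 21 passed the test. AI5_BETA and AI3, intron-encoded frames of the mitochondrial COX1 gene, were among them.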

How the data were processed

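RNA of 4 haploid strains was compared on 6 two-channel oligonucleotide arrays, of which the 3 of YJR13 and YJR12 are described. The deposited intensity values used are spot means and local background medians per channel from ImaGene (6.0.0 per the file headers, 3.0 per the labels), not yet normalized. The deposited log2 ratios were made by the authors in limma with background correction and lowess normalization. Recomputed here without leaving out spots, they differed by at most 4.74e-08 and run as Cy5 over Cy3, and they served as an alternative. Here, spots flagged as poor were left out, normexp with an offset of 50 and whole-array loess were applied in limma 3.58.1 (R 4.3.3), spots of a gene were averaged, and ratios were turned to mutant over wild type. Controls were left out after background correction. All 6 arrays entered 1 linear model with 1 coefficient per strain pair and empirical Bayes moderation, with Benjamini-Hochberg adjustment over 6255 genes. The scan name shared by arrays 1 and 2 gives the dye order of array 2, and the labels state it for each array. Gene names came from the reference table for 5756 genes, and 500 kept the name in the file. Scripts were tested on simulated data.

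The genes named were the 10 largest rises and 10 largest falls past the threshold with 1 sign on 3 arrays, up to 4 genes with the smallest p in each list, the 5 largest differences between strain pairs each way, the marker, mating type and asparaginase genes, and genes above background in 1 strain only. Genes outside this rule were chosen after their values were seen, among them HSP42, SSA4, BTN2, HSP78, HXT5, POT1, SUC2, SLT2, CTT1, GPH1, HSP26, TKL2, SUN4, RPL28, RPL8B and the mitochondrial genes. Members and lists were chosen with earlier results of these data known. Alternatives were other background corrections and normalizations, other spot and intensity filters, a dye effect, slide as a block, the 3 arrays alone, each array left out and other thresholds. No sequence is shown.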

Additional observations from a re-analysis of the deposited data

Results flagged for a closer look

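The difference between the strain pairs (log2 ratio of the YJR13 pair minus that of the YJR6 pair) passed the test for the 4 ASP3 genes, at 4.99 for ASP3-1, 4.83 for ASP3-2, 4.78 for ASP3-3 and 4.79 for ASP3-4. A further 13 named genes had one sign on all 3 arrays of the YJR13 pair and the opposite sign on all 3 arrays of the YJR6 pair, without passing the test of the difference at an adjusted p of 0.05. Of all genes, 25% were higher and 23.6% lower on all 3 arrays of the YJR13 pair, and 27% and 25.8% in the YJR6 pair. The share of all genes with opposite signs was not counted. The named genes include some picked by their difference between pairs, so the 13 do not measure how common the pattern is. Those lower in the YJR13 pair were the mating genes SAG1 (-4.47), FUS1 (-1.60) and AGA1 (-1.35), the spore wall gene CRR1 (-1.37), PSY1 (-1.34) and the polyphosphate synthesis gene VTC3 (-0.77). Those higher in the YJR13 pair were the amino acid permease gene BAP3 (1.54), HMRA1 (1.33), the proteasome gene PRE7 (0.97), the mitochondrial genes COX1 (0.32), AI5_BETA (0.32) and AI3 (0.20), and the aryl-alcohol dehydrogenase gene AAD3 (0.23). SAG1 had log2 ratios of -3.04, -3.11 and -1.95 in the YJR13 pair and 0.08, 1.34 and 3.89 in the YJR6 pair, so that its arrays do not overlap although those of the YJR6 pair are widely spread. No single array was tested as an outlier, since each strain pair has 3.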

How the results depend on the processing

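The count of 78 genes called in YJR13 was 38 without background correction, 597 with plain subtraction, 712 with normexp at an offset of 0, 493 with median normalization, 837 with scaling between arrays, 269 with every spot that carried a flag left out, 337 among genes above the median intensity, 15 with a dye effect, 16 with the 3 arrays alone and 405 with the slide as a random block. It was 6 at an adjusted p of 0.01, 566 at an unadjusted p of 0.01 and 4 to 188 with 1 array left out (arrays 4 to 6 were added after the data were seen). All 78 kept their sign in each setting that gave a value. Of the 78, 34 remained called without background correction, 12 with a dye effect and 8 with the 3 arrays alone. Why the counts moved was not tested, except that fewer arrays or genes enter some fits. The count of 4 genes that differ between pairs was 9 with normexp at an offset of 0, 0 with scaling between arrays, 1 with every spot that carried a flag left out, 0 with the slide as a fixed block and 103 at an unadjusted p of 0.01 (473 at 0.05). The labels pair no array of one strain pair with an array of the other, and by the scan names only arrays 3 and 4 share a slide.

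Signs turned only for genes past no threshold. With median normalization AGA2 was -0.032, LEU2 -0.49, AAD3 -0.43, PRM2 -0.47, HXT15 -0.032, DIT2 -0.083, AI5_BETA -0.22, HOP1 -0.29, YPL276W -0.42, AI3 -0.43, SPR3 -0.39, YMR194C-A -0.45, YFH7 -0.52, LYS12 -0.0593 and COX1 -0.24. LEU2 was -0.031 with plain subtraction, -0.16 with normexp at an offset of 0, -0.068 with every spot that carried a flag left out and -0.057 with the slide as a random block. HIS3 was 0.0057 with scaling, 0.0054 with no spot left out and with the deposited ratios and 0.00069 with a dye effect, and LYS12 was -0.082 without background correction. With 1 array left out, HIS3 lay between -0.013 and 0.014, TRP1 between -0.0727 and 0.38, ADE2 between -0.88 and 0.29, ADE1 between -0.89 and 0.28, CAN1 between -0.33 and 0.082, LYS2 between -0.14 and 0.55 and LYS12 between -0.15 and 0.37.

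The medians of the heat shock, trehalose, glycogen, respiratory, ribosomal protein and histone lists kept their sign under the other normalizations, background corrections and with a dye effect (run after the data were seen). Of the lists named in the text, histidine synthesis (0.03, or -0.09 with normexp at an offset of 0) and the proteasome (0.07, or -0.04 without background correction) did not, and that of the hexose transporters was 0.0088 with median normalization.

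Many YJR12 values lie near background, where the log2 ratio depends on the background correction, as for STE2 (0.64 to 4.24 over the settings) and MET17 (-5.57 to -1.53). Brightness in a channel limits what can be seen: 5993 to 6198 genes were above background in YJR13 and 5475 to 6109 in YJR12.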

Other observations

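Of the 23 genes of the mitochondrial genome on the array, some were brighter in YJR13 than in YJR12, among them intron-encoded frames of COX1 and the gene COB. AI5_ALPHA, an intron-encoded frame of COX1, was 3.48, 6.08 and 2.24 times background in YJR13 on arrays 1 to 3, against 1.12, 1.07 and 1.15 times in YJR12, and its log2 ratios of 2.22, 3.44 and 0.57 averaged 2.08 (SE 0.49, n = 3 arrays, adjusted p = 0.0832 from limma). AI4, another such frame, gave 1.29, 1.47 and 0.40 (mean 1.05, adjusted p = 0.0689). COB, outside these frames, gave 0.36, 1.62 and 0.14 (mean 0.71, adjusted p = 0.225 from limma), while the frame AI3 averaged 0.15. In the YJR6 pair AI5_ALPHA averaged 0.02 and AI4 0.01. Of the 23 genes 12 were higher and 1 was lower on all 3 arrays, 0 were called in limma and 4 had an unadjusted p under 0.05. Of all 6256 genes 1555 were higher and 1471 lower on all 3 arrays, 78 were called and 1355 had such a p. The share with an unadjusted p under 0.05 was thus no larger among the mitochondrial genes than among all genes. The median over them was 0.08. These genes were looked at after their values were seen.

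The median log2 ratio of the genes of each nuclear chromosome lay between -0.01 and 0.06, so that no chromosome stood apart by the median of its means over the 3 arrays. By array the medians moved more, as for chromosome XVI (0.09, -0.18 and 0.07 on arrays 1 to 3) and chromosome IV (-0.04, 0.09 and -0.04). Array 2 had the other dye order, and the part of the dye was not tested.

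The lysine synthesis gene LYS12 had a mean of 0.18 for YJR13 and of -1.81 for YJR6, and the sign of the YJR13 value turned in 3 settings.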
